A study of Mus musculus with 12 samples.

Results

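The V0 sector is the membrane-embedded part of the vacuolar H+-ATPase (V-ATPase), the proton pump that acidifies lysosomes, endosomes and secretory vesicles. Its genes were followed here as 9 members chosen by symbol: Atp6v0a1, Atp6v0a2 and Tcirg1, which encode alternative a subunits; Atp6v0c and Atp6v0b, which encode subunits of the proton-carrying ring; Atp6v0d1; the alternative e subunits Atp6v0e and Atp6v0e2; and the accessory subunit gene Atp6ap1. All 9 were found among the 21924 genes with a listed exon length, in all 12 libraries, and each passed the filter on low counts in every comparison.

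RNA was sequenced from mouse tissue in 4 groups of 3 libraries. The study removed the (pro)renin receptor, a V-ATPase accessory protein encoded by Atp6ap2, from neural stem cells. The control brain and CKO brain groups were whole brains at embryonic day 15, with titles fy/- and genotype Wildtype for the controls and fy/cre and (P)RR_CKO for the knockouts. The control and CKO neurosphere groups were primary neurospheres, floating clusters grown from neural stem cells of the forebrain at embryonic day 16, with the same titles and genotypes. Every group is labelled C57BL/6J and male. The sources used here do not give the promoter driving Cre, the part of Atp6ap2 it removes or whether the wild-type controls carry a floxed allele. A whole brain also holds cells outside the neural stem cell lineage, and no label ties a replicate to its own animal, litter or culture. The p-values therefore measure the spread between these libraries only.

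The V-ATPase is built from a cytosolic V1 sector, which hydrolyses ATP, and the V0 sector, which carries protons through the membrane. An a subunit provides the path for protons beside the rotating c ring, and the choice of a subunit helps to set in which membranes the pump resides: a1 is prominent in neurons and synaptic vesicles, a2 in the Golgi and endosomes, and a3, the product of Tcirg1, in lysosomes and in the acid-secreting border of osteoclasts. Subunit d couples the ring to the central stalk of V1, the e subunits are small membrane proteins, and the products of Atp6ap1 and Atp6ap2 take part in assembly of V0.

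Brain libraries held 5669338 to 6675874 exon reads and neurosphere libraries 12382975 to 18636787, and a member had between 41 exon reads (Tcirg1 in a CKO brain) and 4993 (Atp6v0c in a CKO neurosphere library). Of the reads inside genes, 63.7 to 65.5% lay outside exons in the brain libraries. In the neurosphere libraries that share was lowest in CKO 2, at 7.61%, and highest in control 1, followed by CKO 1 at 10.5%. Neurosphere control 1, labelled male, held 1 read over 4 Y-linked genes, against 1767 to 2992 in the other neurosphere libraries. Its counts also stood apart from controls 2 and 3, with a chi-square per degree of freedom of 57.8 and 50.9 against 5.72 between those libraries. CKO neurosphere 1 likewise stood apart from CKO 2 and 3, at 30.6 and 37.4 against 12.3 between them. Calls on neurospheres that change without these libraries are given with that value. The targeted gene Atp6ap2 read 101, 102 and 101 CPM (exon counts scaled by library size) in control neurospheres and 65.7, 51.3 and 56.8 in CKO neurospheres, a log2 fold change of -0.81 ± 0.11 (SE, edgeR adjusted p = 0.00965). That neurosphere call ended without control 3 or without CKO 2 (edgeR adjusted p = 0.057 in each). In brain Atp6ap2 read 61.6, 63.9 and 73.9 CPM in controls and 56.8, 64.3 and 61.3 in CKO libraries (-0.12 ± 0.09, edgeR adjusted p = 0.792). Markers of radial glia and neural stem cells, 9 in all, had a summed level of 7061 to 9096 CPM in neurospheres and 1296 to 1562 in brain, and 10 microglia markers summed to at most 2.13 CPM in neurospheres.

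Within each library the members spanned a wide range of levels. On a per-length scale (RPKM, the CPM divided by the listed exon length in kilobases), Atp6v0c had the highest group mean and Tcirg1 the lowest in all 4 groups, with a ratio of 51.5 in control brain, 46.7 in CKO brain, 18.9 in control neurospheres and 40.3 in CKO neurospheres. In control brain the order by mean RPKM was Atp6v0c at 113.0, Atp6v0d1 at 53.0, Atp6v0e2 at 40.5, Atp6v0a1 at 38.9, Atp6ap1 at 35.7, Atp6v0b at 34.7, Atp6v0a2 at 9.92, Atp6v0e at 5.84 and Tcirg1 at 2.20. Of these neighbours, Atp6v0e2 and Atp6v0a1, Atp6v0a1 and Atp6ap1, and Atp6ap1 and Atp6v0b had overlapping libraries.

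In control neurospheres the order was Atp6v0c at 195.0 RPKM, Atp6v0e2 at 104, Atp6v0d1 at 92.8, Atp6ap1 at 76.4, Atp6v0b at 73.1, Atp6v0a1 at 39.4, Atp6v0e at 18.8, Atp6v0a2 at 15.6 and Tcirg1 at 10.3. There Atp6v0e2 overlapped with Atp6v0d1, Atp6ap1 with Atp6v0b, and Atp6v0e with Atp6v0a2. Atp6v0a1 thus stood among the middle members in control brain and below them in control neurospheres. Of the 36 pairs of members, 25 kept the same order by RPKM in all 12 libraries, 33 did so in the 6 brain libraries and 28 in the 6 neurosphere libraries.

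**Figure D1:**
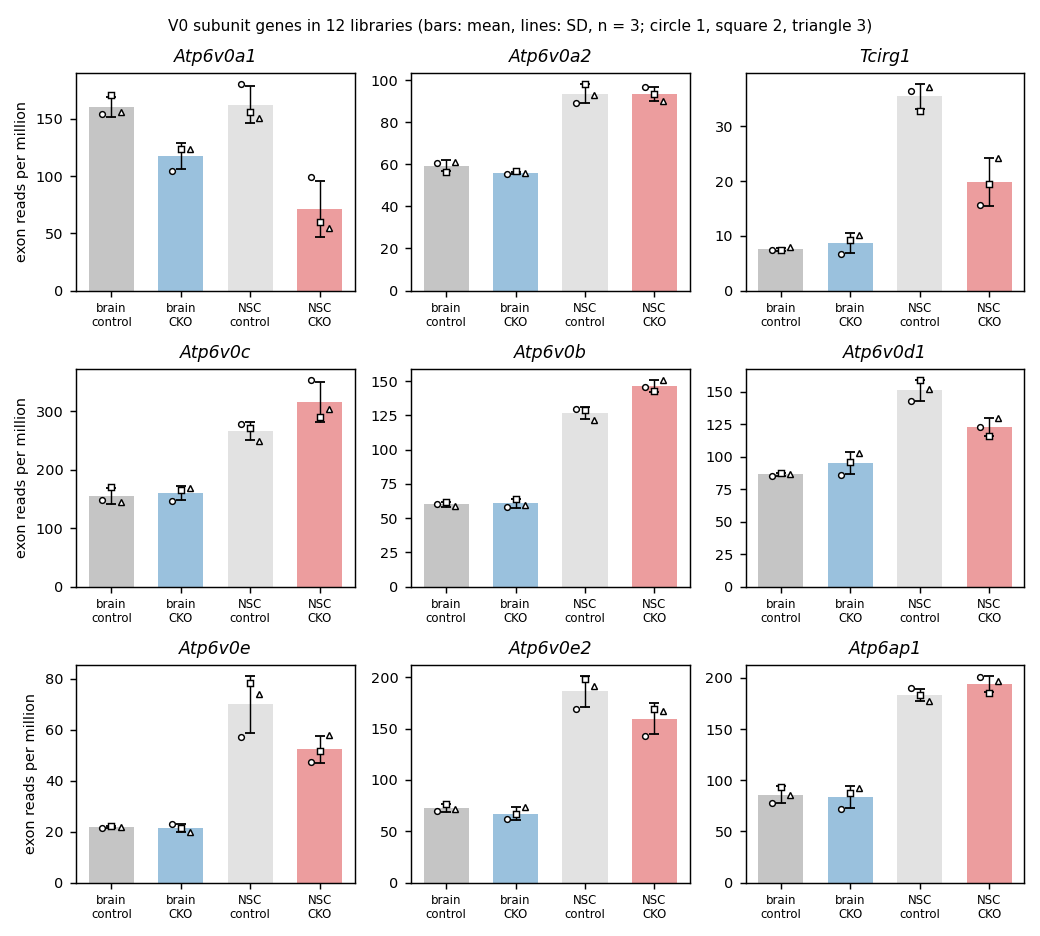
Exon reads in CPM (y axis, linear, from 0) of the 9 V0 members in the 4 groups (x axis); bars are means, lines the SD over 3 libraries, and symbols the libraries. Atp6v0a1 was lower in the CKO group of both tissues, and Tcirg1 in CKO neurospheres but not in CKO brain, where the groups overlapped.

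Atp6v0a1, Tcirg1 and Atp6v0d1 were lower in CKO than in control neurospheres. These 3 of 9 members fell and 0 rose at an edgeR adjusted p below 0.05, where 26.7% of all 13316 genes tested were called, 14.7% of the tested genes higher and 12.0% lower, so the members' count was close to that over all genes. The groups did not overlap for 5 members (47.9% of all genes tested), and the median log2 fold change was -0.22 over the members and -0.02 over all genes. In brain, Atp6v0a1 alone fell, 0 members rose, and 0.443% of 13557 genes tested were called, with 0.199% of the tested genes lower. It was also the 1 member whose brain groups did not overlap, as in 14.6% of all genes, and the members' median was -0.01 against 0.00 over all genes. Leaving out both neurosphere libraries numbered 1 raised the number of members called in neurospheres to 6, of which Atp6v0b was higher and Atp6v0a1, Tcirg1, Atp6v0d1, Atp6v0e and Atp6v0e2 were lower. Calls rose over all genes as well in that fit, with 3740 of 13328 genes tested called higher and 3633 lower.

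**Figure D2:**
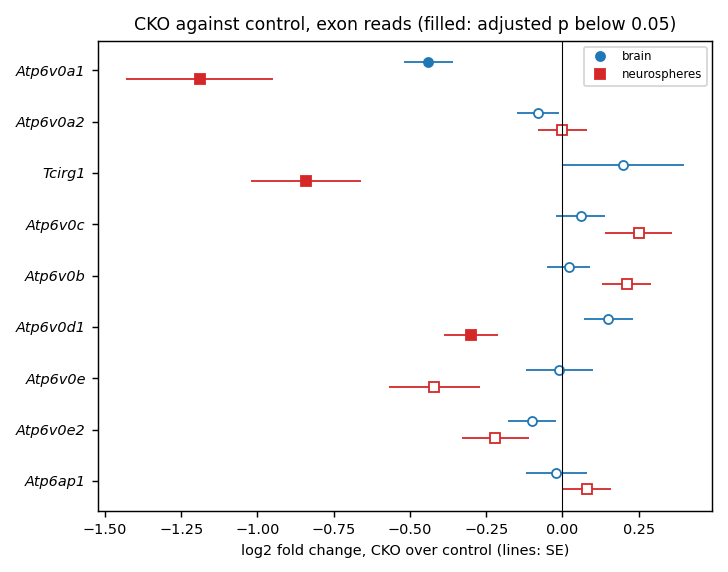
Log2 fold change of CKO over control (x axis) of each V0 member (y axis) in brain (circles) and neurospheres (squares); lines are standard errors and filled symbols have an edgeR adjusted p below 0.05. Atp6v0a1 lies left of 0 in both tissues, at -0.44 in brain and -1.19 in neurospheres, and Tcirg1 at -0.84 in neurospheres.

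Atp6v0a1 (ENSMUSG00000019302) has 30 listed exons, 4117 bases in all, and lies on chromosome 11 from 100900278 to 100954545 in the tables' coordinates, a build that the sources used here do not name. In control neurospheres it read 181, 156 and 151 CPM, and in CKO neurospheres 99.1, 60.1 and 54.8. All 3 CKO libraries lay below all 3 controls, with CKO 1 the nearest to them. The gene fell 2.28-fold (log2 fold change -1.19 ± 0.24 SE, n = 3 per group, edgeR adjusted p = 0.0182). In these bulk libraries, fewer cells of a type and less RNA per cell cannot be told apart. The summed level of 10 neuron markers was 2169 to 2546 CPM in control and 1353 to 2081 in CKO neurospheres, and 5 of the 10 fell and 1 rose. For 7 oligodendrocyte lineage markers the sums were 1900 to 2968 and 1596 to 1794 CPM, with 4 falling. For 6 astrocyte markers they were 959.9 to 3508 and 519.7 to 1285 CPM, with 2 falling in edgeR and 4 in DESeq2. For 8 pericyte and meningeal markers they were 24.2 to 67.3 CPM in control and 174, 60.8 and 1522 CPM in CKO neurospheres 1, 2 and 3, with 2 of 7 tested rising in edgeR and 5 of 8 in DESeq2. The median log2 fold change was -0.66 over the neuron markers, -3.79 over the oligodendrocyte lineage markers and -1.36 over the astrocyte markers. Over the 7 tested pericyte and meningeal markers it was 4.27. The 9 markers of radial glia and neural stem cells summed to 7061 to 8395 CPM in control and 8526 to 9096 in CKO neurospheres. Of these, edgeR called 0 (4 at an unadjusted p below 0.05), 3 rose in DESeq2, and the median was -0.34. The part of these marker lists in the changes of the members was not tested.

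Between the neurosphere fits that each left out 1 library, the fold change of Atp6v0a1 ranged from -1.50 to -1.03. The edgeR call held without control 1 or CKO 1 and ended without control 2 (adjusted p = 0.0552), control 3 (0.0686), CKO 2 (0.0738) or CKO 3 (0.0534). Without control 3, edgeR called 0 of 13459 genes tested, with 4177 at an unadjusted p below 0.05. Without CKO 2 it called 0 of 13497, with 4282 at that level. The calls of Tcirg1, Atp6v0d1 and Atp6ap2 therefore ended in these fits together with those of all other genes.

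In brain, Atp6v0a1 read 154, 171 and 156 CPM in controls and 104, 124 and 124 in CKO libraries. Again the groups did not overlap, and CKO 1 was the lowest. The gene fell 1.36-fold (log2 fold change -0.44 ± 0.08, edgeR adjusted p = 0.0427). The sums of the neuron markers were 6135 to 6717 CPM in control and 5488 to 6006 in CKO brain, with 0 of 10 called by edgeR (4 at an unadjusted p below 0.05) and 1 by DESeq2. Of the astrocyte markers 2 of the 5 tested fell in CKO brain, with sums of 166 to 207 CPM in control and 152 to 178 in CKO libraries, and 1 of 9 markers of radial glia and neural stem cells fell. The part of these markers in the result was not tested. The edgeR call of Atp6v0a1 in brain ended without control 1 (adjusted p = 0.0983), control 2 (0.205), control 3 (0.219), CKO 1 (0.0519), CKO 2 (0.0913) or CKO 3 (0.0919), with a fold change between -0.48 and -0.37. It also ended with library totals as the only scaling (0.0553) and in the fit of all 12 libraries (1.0). That fit called 1 of 14415 genes for the CKO effect in brain. The brain call of Atp6v0a1 held in DESeq2 (adjusted p = 0.0021) and with no filter on low counts (edgeR adjusted p = 0.0117). The CKO effect on Atp6v0a1 in neurospheres minus that in brain was -0.73 ± 0.26 on the log2 scale (edgeR adjusted p = 0.0852), which did not pass the threshold. It passed without CKO neurosphere 1 (-1.07, edgeR adjusted p = 0.0018), without both neurosphere libraries numbered 1 (-1.0, edgeR adjusted p = 8.43e-05) and in DESeq2 (-0.76, adjusted p = 0.0389).

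Tcirg1 (ENSMUSG00000001750, chromosome 19, 3946050 to 3957133 in the tables' coordinates, 28 exons) read 36.4, 32.8 and 37.2 CPM in control neurospheres and 15.6, 19.5 and 24.3 in CKO neurospheres. Every CKO library lay below every control. The gene fell 1.79-fold (log2 fold change -0.84 ± 0.18, edgeR adjusted p = 0.021). Without 1 library its fold change lay between -1.01 and -0.69, and the edgeR call ended without control 2 (adjusted p = 0.0594), control 3 (0.084) or CKO 2 (0.0812).

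Brain held much less Tcirg1, at 7.36, 7.44 and 7.88 CPM in controls and 6.60, 9.16 and 10.2 in CKO libraries, which overlapped (0.20 ± 0.20, edgeR adjusted p = 0.868). The 10 microglia and macrophage markers, from cells that also express Tcirg1, summed to 51.4 to 67.0 CPM in control and 71.1 to 89.8 in CKO brain, while in neurospheres they were near 0. In brain edgeR called 0 of the 9 tested (5 at an unadjusted p below 0.05) and DESeq2 called 0 of 10. The part of these markers in the brain levels of Tcirg1 was not tested.

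The CKO effect on Tcirg1 differed between the tissues by -1.04 ± 0.27 on the log2 scale (edgeR adjusted p = 0.0289). Tcirg1 and Atp6v0d1 were the 2 of 9 members called in this test of the difference, both lower. It called 13.3% of 14415 genes, 7.21% higher and 6.06% lower, and 54.4% of its calls were higher; with library totals as the only scaling, 37.3% were. The call of Tcirg1 ended without brain control 1 (adjusted p = 0.0687), 2 (0.0621) or 3 (0.0611), CKO brain 2 (0.0719) or 3 (0.0801), neurosphere control 3 (0.066) or CKO neurosphere 2 (0.0547), and on junction reads (0.0603).

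The remaining a subunit gene, Atp6v0a2, showed no detectable CKO difference in either tissue. It read 89.2, 98.3 and 92.9 CPM in control and 96.8, 93.5 and 90.0 in CKO neurospheres, which overlapped (0.00 ± 0.08, edgeR adjusted p = 0.995). In brain it read 60.5, 56.5 and 61.3 CPM in control and 55.3, 56.6 and 55.7 in CKO libraries (-0.08 ± 0.07, edgeR adjusted p = 0.854).

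The makeup of the a subunit transcripts is given here as shares. These shares add up to the whole in each library, so they are not separate results. A gene such as Atp6v0a2 can gain share without a change in its own level. Of the summed RPKM of Atp6v0a1, Atp6v0a2 and Tcirg1, Atp6v0a1 took 76.2 ± 1.68% (SD, n = 3) in control brain and 70.6 ± 1.02% in CKO brain. It took 60.3 ± 2.65% in control neurospheres and 44.0 ± 8.59% in CKO neurospheres. By library the neurosphere shares of Atp6v0a1 were 63.3, 59.3 and 58.3% in controls and 53.8, 40.7 and 37.6% in CKO libraries.

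Atp6v0a2 took 19.5 ± 1.47% in control brain, 23.3 ± 1.82% in CKO brain, 23.9 ± 2.22% in control neurospheres and 40.7 ± 4.00% in CKO neurospheres. For both genes the CKO and control libraries did not overlap in either tissue, and the 2-sided exact permutation test gave p = 0.1, the smallest that 3 against 3 libraries allow. In CKO neurospheres 2 and 3, Atp6v0a2 had the larger share, and in CKO neurosphere 1 Atp6v0a1 did. Tcirg1 took 15.8 ± 1.19% in control and 15.3 ± 4.94% in CKO neurospheres, which overlapped (exact permutation p = 0.9), and 4.30 ± 0.236% and 6.19 ± 0.880% in control and CKO brain. The summed RPKM of the 3 genes was 63.0 to 69.4 in control and 35.4 to 44.8 in CKO neurospheres. In brain the sum was 49.7 to 53.1 in control and 36.4 to 42.3 in CKO libraries.

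**Figure D3:**
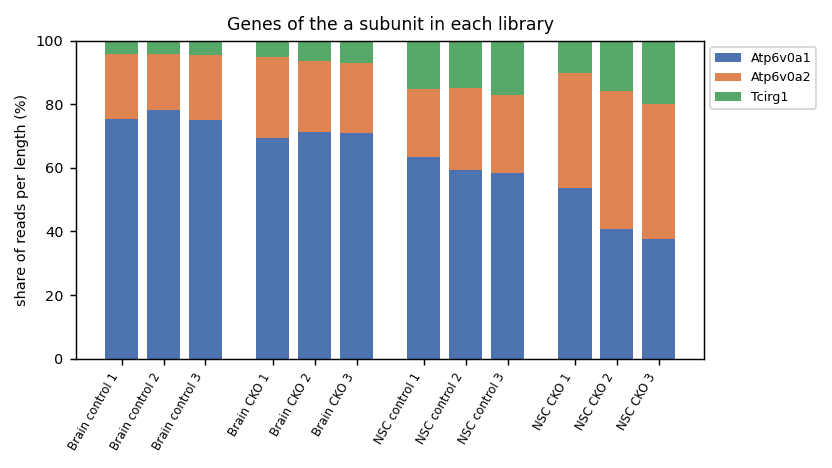
Share of the summed reads per length of the 3 a subunit genes (y axis, percent) in each of the 12 libraries (x axis). The Atp6v0a1 part is tallest in brain and shortest in CKO neurospheres 2 and 3, at 40.7 and 37.6%.

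Atp6v0d1, which joins the c ring to the V1 stalk, read 143, 159 and 152 CPM in control neurospheres and 123, 116 and 129 in CKO neurospheres. The groups did not overlap, and the gene (ENSMUSG00000013160, chromosome 8, 106251097 to 106292679 in the tables' coordinates) fell 1.23-fold (log2 fold change -0.30 ± 0.09, edgeR adjusted p = 0.0443). In brain it read 84.7, 87.1 and 87.0 CPM in controls and 85.7, 96.2 and 102.9 in CKO libraries, which overlapped (0.15 ± 0.08, edgeR adjusted p = 0.673). The difference between the 2 effects was -0.44 ± 0.12 on the log2 scale (edgeR adjusted p = 0.0303).

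The neurosphere call of Atp6v0d1 held only without control 1 among the edgeR fits that left out 1 library. It ended without control 2 (adjusted p = 0.157), control 3 (0.142), CKO 1 (0.0728), CKO 2 (0.172) or CKO 3 (0.0757), and with no filter on low counts (0.0675). For the difference between the tissues the call of Atp6v0d1 held without CKO brain 1, neurosphere control 1, CKO neurosphere 1 or CKO neurosphere 3. It ended without brain control 1 (0.0738), 2 (0.0622) or 3 (0.0692), CKO brain 2 (0.0738) or 3 (0.0815), neurosphere control 2 (0.0704) or 3 (0.0664), or CKO neurosphere 2 (0.0701).

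The ring genes lay on the other side of 0 in neurospheres and did not pass the threshold with all 6 libraries. Atp6v0c, the proteolipid that forms most of the ring, read 279, 271 and 250.0 CPM in control and 355, 290.0 and 303 in CKO neurospheres (0.25 ± 0.11, edgeR adjusted p = 0.129). Atp6v0b, a related ring subunit, read 129, 129 and 122 CPM in control and 146, 142 and 151 in CKO neurospheres (0.21 ± 0.08, edgeR adjusted p = 0.0883). For both genes all 3 CKO libraries lay above all 3 controls. Atp6v0b passed the threshold without both libraries numbered 1 (0.23 ± 0.08, edgeR adjusted p = 0.0356) and in the fit of 12 libraries (0.21 ± 0.06, 0.0244), and Atp6v0c in neither (0.0619 and 0.067).

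In brain, the control and CKO libraries of both ring genes overlapped, at 145 to 170.3 and 147 to 169 CPM for Atp6v0c (0.06 ± 0.08, edgeR adjusted p = 0.901). Atp6v0b read 58.6 to 62.1 CPM in control and 58.4 to 64.1 in CKO brain (0.02 ± 0.07, edgeR adjusted p = 0.971).

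The e subunits are encoded by a pair of genes, of which Atp6v0e2 gave the larger part of the reads per length in every library. Its share of their summed RPKM was 87.4 ± 0.419% in control brain, 86.6 ± 1.91% in CKO brain, 84.8 ± 1.11% in control neurospheres and 86.4 ± 0.748% in CKO neurospheres. The CKO and control libraries overlapped in that share in both tissues (2-sided exact permutation p = 0.7 in brain and 0.2 in neurospheres).

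Atp6v0e read 57.0, 78.4 and 74.1 CPM in control and 47.2, 51.6 and 57.8 in CKO neurospheres (-0.42 ± 0.15, edgeR adjusted p = 0.0758). The groups overlapped through control 1, the lowest control, and without that library the difference passed the threshold (-0.55, edgeR adjusted p = 0.0143), as it did without both libraries numbered 1 (-0.47, 0.00404) and in the fit of 12 libraries (-0.42, 0.0186). For Atp6v0e the CKO effect in neurospheres minus that in brain was -0.40 ± 0.18 (edgeR adjusted p = 0.158), and it passed the threshold without control 1 (-0.59, 0.0122) and without both libraries numbered 1 (-0.50, 0.0125). Atp6v0e2 read 169.5, 198.5 and 192 CPM in control and 142.5, 169.5 and 167 in CKO neurospheres (-0.22 ± 0.11, edgeR adjusted p = 0.157). The lowest control and the highest CKO library both read 169.5 CPM to the digits given. Without both libraries numbered 1 the gene passed the threshold (-0.21 ± 0.07, edgeR adjusted p = 0.0357). In brain the CKO differences were -0.01 ± 0.11 for Atp6v0e and -0.10 ± 0.08 for Atp6v0e2 (edgeR adjusted p = 0.991 and 0.835).

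Atp6ap1, the X-linked gene of the accessory subunit Ac45, read 189.7, 183 and 178 CPM in control and 201, 185 and 197 in CKO neurospheres, which overlapped (0.08 ± 0.08, edgeR adjusted p = 0.46). In brain it read 77.5, 93.9 and 85.8 CPM in control and 71.9, 87.8 and 92.1 in CKO libraries (-0.02 ± 0.10, edgeR adjusted p = 0.979). The values in neurospheres stand beside the fall of Atp6ap2, the other accessory subunit gene on the X chromosome, in the same libraries.

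The tables also count reads inside each gene but outside its exons, most of which lie in introns. For Atp6v0a1 in brain these numbered 2041, 1723 and 2000 reads in controls and 1764, 1839 and 1893 in CKO libraries, which overlapped. Their log2 fold change was -0.00 ± 0.07 (edgeR adjusted p = 0.998), beside the fall of 0.44 of the exon reads on the log2 scale. The number of exon reads per read outside exons was 0.523, 0.586 and 0.524 in control and 0.367, 0.441 and 0.397 in CKO brain.

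In neurospheres, Atp6v0a1 had 990, 582 and 680 reads outside exons in controls and 733, 574 and 415 in CKO libraries (-0.29 ± 0.15, edgeR adjusted p = 0.306). Exon reads per such read numbered 2.28, 3.13 and 2.95 in control and 1.84, 1.80 and 1.63 in CKO neurospheres. Tcirg1 had 124, 72 and 89 reads outside exons in control and 86, 126 and 86 in CKO neurospheres (0.20 ± 0.21, edgeR adjusted p = 0.628). Exon reads per such read were 3.67, 5.33 and 5.54 in its controls and 2.47, 2.67 and 3.48 in its CKO libraries. Among the reads outside exons 0 members were called in either tissue by edgeR, where 0.305% of genes were called in brain and 1.99% in neurospheres. At an unadjusted p below 0.05 there were 0 members as well. The difference between the fold changes of exon reads and of reads outside exons was not tested. How often exon reads per read outside exons differ in this way over all genes was not counted.

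Reads that span exon-exon junctions, which come from spliced RNA, gave a log2 fold change for Atp6v0a1 of -0.50 ± 0.10 in brain and -1.24 ± 0.24 in neurospheres, with edgeR adjusted p = 0.0127 and 0.0166. On junction reads Tcirg1 fell by 1.03 ± 0.21 (edgeR adjusted p = 0.0168) and Atp6v0d1 by 0.42 ± 0.10 (0.027) in neurospheres on the log2 scale.

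**Figure D4:**
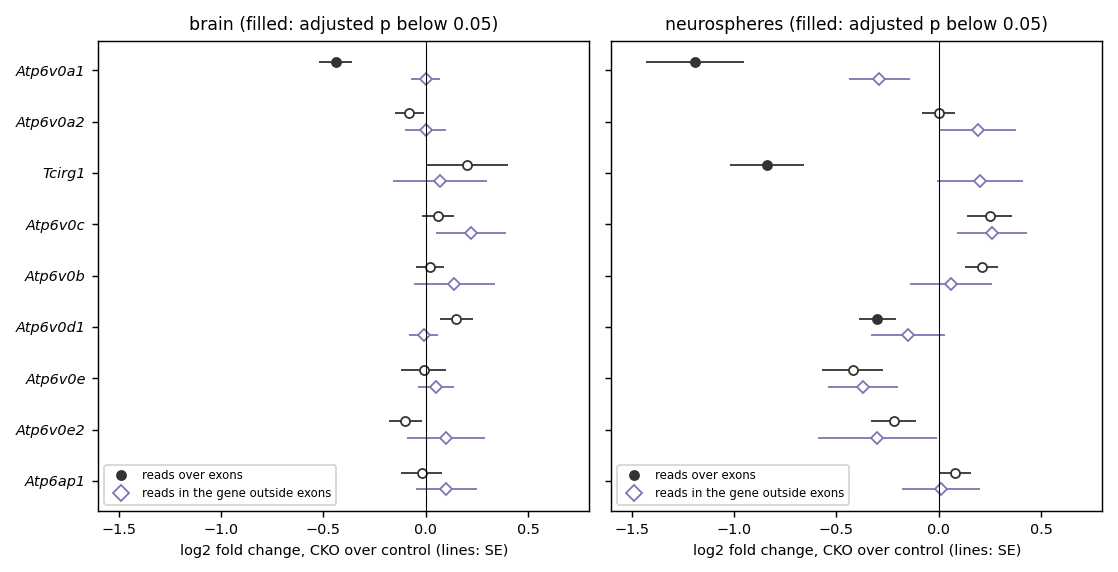
Log2 fold change of CKO over control (x axis) of each V0 member (y axis) for reads over exons (circles) and reads in the gene outside exons (diamonds), in brain (left) and neurospheres (right); lines are standard errors and filled symbols have an edgeR adjusted p below 0.05. Atp6v0a1 in brain lies at -0.44 for exon reads and -0.00 for reads outside exons, and Tcirg1 in neurospheres at -0.84 and 0.20.

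Between the tissues most members were higher in neurospheres than in whole brain. In the control libraries 8 of 9 members were called higher and 0 lower, where 70.4% of 14415 genes were called, 34.9% higher. The groups did not overlap for 8 members, against 74.3% of all genes. The median log2 fold change of neurospheres over brain was 1.07 over the members and -0.01 over all genes.

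The largest difference among the members was that of Tcirg1, 4.68-fold (2.23 ± 0.19, edgeR adjusted p = 1.26e-06), followed by Atp6v0e (1.69 ± 0.13), Atp6v0e2 (1.36 ± 0.10), Atp6ap1 (1.10 ± 0.10), Atp6v0b (1.07 ± 0.07), Atp6v0d1 (0.81 ± 0.08), Atp6v0c (0.79 ± 0.10) and Atp6v0a2 (0.65 ± 0.07). The edgeR adjusted p of these 8 genes was at most 2.71e-05, and each was higher in 3 of 3 neurosphere libraries than in any control brain. Atp6v0c did not pass the threshold on junction reads (0.38 ± 0.17, edgeR adjusted p = 0.0631). On reads outside exons Atp6v0a2 (0.16 ± 0.15, edgeR adjusted p = 0.325) and Atp6v0d1 (0.13 ± 0.13, 0.399) did not pass it.

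Atp6v0a1 was the exception, at 154, 171 and 156 CPM in control brain and 181, 156 and 151 in control neurospheres (0.02 ± 0.19, edgeR adjusted p = 0.932). The sign of that difference turned with library totals alone (-0.10), with the other scalings tried (-0.01) and on junction reads (-0.36). On reads outside exons, by contrast, Atp6v0a1 was called higher in control neurospheres (0.41 ± 0.11, edgeR adjusted p = 0.00327).

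In the CKO libraries 8 of 9 members were called higher in neurospheres and 1, Atp6v0a1, lower, where 76.1% of all genes were called, 38.4% higher and 37.7% lower. The groups did not overlap for 9 members, against 78.9% of all genes, and the median was 1.19 over the members and 0.01 over all genes. Atp6v0a1 was 1.64-fold lower in CKO neurospheres than in CKO brain (-0.72 ± 0.19, edgeR adjusted p = 0.00468). Atp6v0d1 differed least among the higher ones (0.37 ± 0.08, edgeR adjusted p = 0.00147), was not called with library totals alone and lay at -0.08 on junction reads. On reads outside exons Atp6v0d1 (0.02 ± 0.14, edgeR adjusted p = 0.882) and Atp6v0e (0.23 ± 0.12, 0.103) were not called higher. There Atp6v0a1 lay at 0.16 ± 0.11 (edgeR adjusted p = 0.203). Tissue, culture, age and the share of reads outside exons differed together between brain and neurospheres and cannot be told apart.

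**Figure D5:**
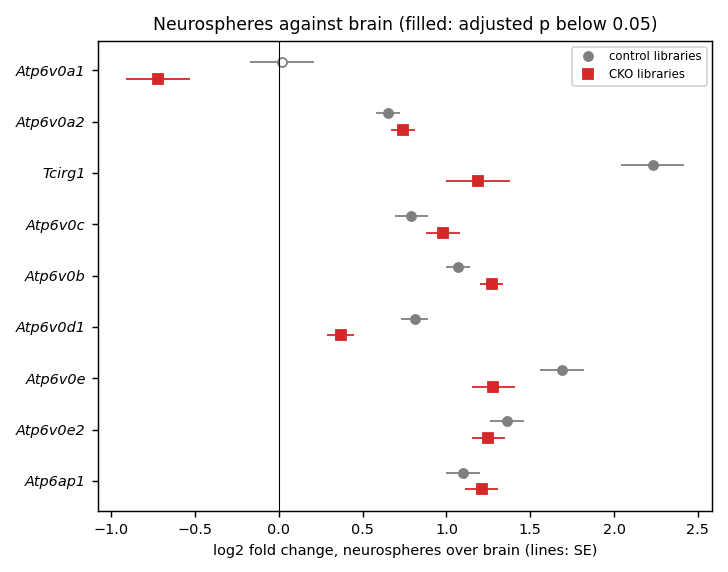
Log2 fold change of neurospheres over brain (x axis) of each V0 member (y axis) in control libraries (circles) and CKO libraries (squares); lines are standard errors and filled symbols have an edgeR adjusted p below 0.05. In controls all 9 members lie right of 0, with Atp6v0a1 at 0.02 and not called, and in CKO libraries Atp6v0a1 lies at -0.72.

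The promoters of V-ATPase and lysosomal genes can hold an E-box-like element bound by the transcription factor TFEB, so the 250 bases upstream of each RefSeq start were searched for it on both strands. RefSeq windows (GRCm38.p6) were found for 8 of the 9 members, 12 windows in all. The motif TCACGTGA was in 0 of the 12 member windows and in 0.785% of 32851 windows of all genes. Its core CACGTG was in 1 of the 12 member windows, a window of Atp6v0b, and in 6.02% of all windows. Both motifs read the same on both strands, and each match of the longer one is also a match of the core. The Atp6v0b stretch is shown because it holds the core 2 times, at 36 and 18 bases upstream of the start (chr4:117887330-117887387, minus strand, GRCm38.p6), with the cores in capitals.
Atp6v0b: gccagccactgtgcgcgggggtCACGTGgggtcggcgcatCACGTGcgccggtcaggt
A match is a description of the letters and was not tested for binding.

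The other V-ATPase genes give the setting for these members. Of the V0 and accessory genes outside the 9 members, Atp6v0a4, Atp6v0d2 and Atp6ap1l had at most 7 exon reads in any library and were not tested. Of 13 genes of the V1 sector 9 were tested. By edgeR 0 of those 9 were called in CKO brain or CKO neurospheres, and 0 and 2 had an unadjusted p below 0.05. Of all genes tested, edgeR called 0.443% in brain and 26.7% in neurospheres. DESeq2, which tested 12 of the 13 in brain and 13 in neurospheres, called 0 and 1. The 9 genes had a median log2 fold change of 0.05 in brain and 0.19 in neurospheres. In control neurospheres against control brain 7 of the 9 were higher and 0 lower, with a median of 0.56. The largest of these differences were those of Atp6v1f (1.03 ± 0.10, edgeR adjusted p = 3.22e-06) and Atp6v1g1 (0.85 ± 0.08, 2.23e-06). In that comparison 34.9% of all genes tested were called higher and 35.5% lower.

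Another list held 7 assembly factors, which help to build V0 or to join V1 to it. In CKO brain 0 of them were called by edgeR, by DESeq2 or at an unadjusted p below 0.05. In CKO neurospheres 2 fell and 0 rose by edgeR, where 12.0% of all genes tested fell and 14.7% rose. Dmxl2, a rabconnectin that promotes V1 and V0 association, fell from 103 ± 4.17 to 67.5 ± 9.28 CPM (SD, n = 3; -0.61 ± 0.12, edgeR adjusted p = 0.0167). Rogdi, a partner of the rabconnectins, fell from 20.9 ± 3.02 to 14.03 ± 1.25 CPM (-0.57 ± 0.15, edgeR adjusted p = 0.0384). Between the control tissues 1 of the 7 was higher in neurospheres and 3 were lower, beside 34.9 and 35.5% of all genes tested.

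Of 29 lysosomal proteins, 2 rose and 4 fell in CKO neurospheres, where 14.7% of all genes tested rose and 12.0% fell. In CKO brain edgeR called 0 of them, with 10 at an unadjusted p below 0.05, and DESeq2 called 1. Gla, the lysosomal alpha-galactosidase, rose by 0.79 ± 0.21 on the log2 scale (edgeR adjusted p = 0.0377), and Scarb2, a receptor that carries glucocerebrosidase to lysosomes, fell by 0.74 ± 0.19 (0.0332). All 29 were called higher in control neurospheres than in control brain, with a median of 1.85. There 34.9% of all genes tested were called higher. The tissue comparisons share libraries with the CKO comparisons, so their values are given side by side only.

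The authors' deposited table gives a signed fold change of -2.274 for Atp6v0a1 in neurospheres (FDR-corrected p = 3.522e-05) and -1.362 in brain (0.001518), where a minus sign means lower in CKO. For Tcirg1 in neurospheres the authors' deposited table gives -1.788 (FDR-corrected p = 0.01275). For Atp6v0d1 in neurospheres the fold change in the authors' deposited table was -1.231, with an FDR-corrected p of 0.4145 that does not pass 0.05.

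The genes whose levels followed those of 4 members most closely over the 12 libraries were sought among 11988 genes, by Pearson's r of log2 CPM. For Atp6v0a1 they were Iqcg (r = 0.959), Rab36 (0.953) and Smarca2 (0.950). For Atp6v0a2 they were Srebf1 (0.995), Myo6 (0.992) and Arfip1 (0.991). For Tcirg1 they were Pld3 (0.989), Rfxank (0.988) and Smoc1 (0.987), and for Atp6v0e2 Slc48a1 (0.998), Rnf141 (0.997) and Atp1b2 (0.996). These values describe 12 libraries of 2 tissues that share depth and culture, so the difference between brain and neurospheres enters every r.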

How the data were processed

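RNA was measured in 12 libraries. The input was 500 ng of total RNA, with ribosomal RNA depleted and a strand-marking library kit, per the labels' protocols, and the sequencer was a NextSeq 500, per the series' design text. The deposited values used are raw counts per gene and library, per the file headers: reads over exons (main), uniquely placed exon reads, junction reads and reads outside exons. All 108 pairs of member and library had only uniquely placed exon reads. The authors' deposited tables also give a p-value, an FDR-corrected p-value and a signed fold change score of a test called EDGE, per the file headers. Another 120 per-sample value columns were not used, and 3731 of 25655 listed genes had no exon length and were left out. The submitters' processing notes name GRCm38 and mm10, but the tables' gene coordinates do not match GRCm38. The sources used here name neither the aligner nor the strand setting of the counts, so reads of overlapping and antisense genes cannot be told apart.

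For the fits, edgeR 4.0.16 (R 4.3.3) was used with TMM factors, filterByExpr and robust quasi-likelihood F-tests, two-sided. P-values were adjusted by the Benjamini-Hochberg method over every gene tested, and genes were called below 0.05. Each tissue was fitted alone (6 libraries); tissue comparisons and the difference between CKO effects came from 1 fit of 12 libraries. Each SE was derived from F and the log2 fold change. CPM and RPKM were computed with the TMM factors of the 12 libraries and the listed exon lengths, which do not follow isoform use. Shares were compared with exact permutation tests (scipy 1.17.1). Scripts were tested on simulated data. The text names every member, Atp6ap2, up to 4 called genes per list and comparison, and the 3 most similar genes (prior count of 2, mean of at least 5 CPM). The members and lists were chosen with earlier results of these data known. Alternatives were other scalings, no filter on low counts, DESeq2 1.42.0, a replicate block, other read classes, other sets of libraries and leaving out each library.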

Additional observations from a re-analysis of the deposited data

Results flagged for a closer look

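Among the 9 members and the targeted gene, 3 genes had a CKO effect that differed between neurospheres and brain by the test of the difference itself in edgeR, which called 13.3% of the 14415 genes tested. Tcirg1 had a difference of -1.04 ± 0.27 on the log2 scale (adjusted p = 0.0289), with lower levels in 3 of 3 CKO neurosphere libraries and overlapping levels in brain. Atp6v0d1 had a difference of -0.44 ± 0.12 (edgeR adjusted p = 0.0303), with lower levels in 3 of 3 CKO neurosphere libraries. The targeted gene Atp6ap2 had a difference of -0.68 ± 0.15 (edgeR adjusted p = 0.0155), with lower levels in 3 of 3 CKO neurosphere libraries. The call of this difference held in all 12 fits that left out 1 library, while its neurosphere call held in 4 of 6.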

How the results depend on the processing

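Depth limits Tcirg1 most, with 41 to 62 exon reads per brain library. Of 820 alternative fold changes of members and Atp6ap2, 40 changed sign, 52 others lost a call and 15 others gained one, and the cause was not tested. With library totals as the only scaling the median of all genes moved to -0.132 in the control and -0.174 in the CKO tissue comparison, and with DESeq2 to -0.136 and -0.212; relative to these shifts the 8 higher control calls kept their direction. In brain, 60 genes and 1 member were called: 110 genes with DESeq2, 193 with the replicate block, 26 on junction reads and 1 in the fit of 12 libraries, and 0 members with library totals alone, on reads outside exons and in the fit of 12 libraries. Leaving out 1 library gave 3 to 36 genes and 0 members. In neurospheres, 3553 genes and 3 members were called: 235 and 0 on reads outside exons, 5748 and 5 in the fit of 12 libraries, 7373 and 6 without both libraries numbered 1, and 0 to 5241 and 0 to 4 without 1 library. For the difference between CKO effects, 1913 genes and 2 members were called: 695 and 1 on junction reads, 230 and 0 on reads outside exons, 4912 and 4 without both libraries numbered 1, and 846 to 4003 and 0 to 3 without 1 library.

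Signs that turned were mostly of log2 fold changes near 0. In brain these were Atp6v0e with library totals (0.0019), Atp6v0c (-0.01) and Atp6ap1 (0.21) on junction reads, and, on reads outside exons, Atp6v0a2 (0.0019), Atp6v0d1 (-0.01), Atp6v0e (0.05), Atp6v0e2 (0.10), Atp6ap1 (0.10) and Atp6ap2 (0.29). In neurospheres they were Atp6v0a2 with RLE factors (-0.01), library totals (-0.05), DESeq2 (-0.0013), junction reads (-0.03), 12 libraries (-0.0007) and without both libraries numbered 1 (-0.05), and Tcirg1 (0.20) and Atp6ap2 (0.13) on reads outside exons. Between control tissues Atp6v0a1 turned with RLE factors (-0.01), library totals (-0.10), DESeq2 (-0.01) and junction reads (-0.36). Between CKO tissues Atp6v0d1 turned on junction reads (-0.08), and Atp6v0a1 (0.16) and Atp6ap2 (0.07) on reads outside exons. For the difference between CKO effects Atp6ap1 turned on junction reads (-0.19), Tcirg1 (0.16), Atp6v0b (-0.06) and Atp6ap1 (-0.06) on reads outside exons, and Atp6v0a2 without both libraries numbered 1 (-0.01). Without 1 library the signs turned, over the ranges given, for Atp6ap1 (-0.09 to 0.07), Atp6v0b (-0.02 to 0.04) and Atp6v0e (-0.07 to 0.05) in brain, Atp6v0a2 in neurospheres (-0.03 to 0.03), Atp6v0a1 between control tissues (-0.02 to 0.08), Atp6ap2 between CKO tissues (-0.17 to 0.005) and Atp6v0a2 for the difference between CKO effects (-0.0042 to 0.13). The share differences in percentage points that turned were those of Tcirg1 in neurospheres (-2.829 to 2.088), and of Atp6v0e2 in brain (-1.759 to 0.1498) and between CKO tissues (-1.15 to 0.758).

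The replicate numbers are shared between groups, but same-numbered libraries did not deviate together throughout. Their correlations were 0.37, 0.14 and -0.04 in brain and 0.24, -0.01 and 0.19 in neurospheres. Between differently numbered libraries they ran from -0.30 to 0.20 in brain and from -0.31 to 0.21 in neurospheres. Libraries numbered 1 had a positive correlation with each other in both tissues and negative ones with the rest. The numbers were not taken as pairs. With the replicate block, edgeR called 193 genes in brain and 2072 higher and 1753 lower in neurospheres. In brain Atp6v0a1 kept its call with a lower p (-0.45 ± 0.06, edgeR adjusted p = 0.00399). In neurospheres Atp6v0a1 (-1.23 ± 0.14, edgeR adjusted p = 0.016) and Tcirg1 kept their calls. There Atp6v0e gained a call and Atp6v0d1 lost its own (edgeR adjusted p = 0.0594).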
